A study of Homo sapiens with 6 samples.

Results

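The proteasome genes described here code for the structural subunits of the core particle and for the subunits and assembly factors of its cap. They were chosen by symbol, as every gene named PSMA, PSMB, PSMC or PSMD followed by a number, without the catalytic beta subunits PSMB5, PSMB6 and PSMB7 and their immunoproteasome counterparts PSMB8, PSMB9 and PSMB10. This gave 33 of 23844 genes in the deposited tables. Of these, 13 belong to the core and 20 to the cap. A filter of at least 1 FPKM (a fragment count corrected for transcript length and library size) in at least 1 library left 12337 genes, and 32 of the 33 members passed it. PSMB11, the catalytic subunit of the thymus proteasome, was listed at 0 in all 6 libraries and is not part of the counts that follow.

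The study sequenced polyadenylated RNA of 6 cultures, 1 library each, from DAUDI, a human Burkitt lymphoma line, and DOHH2, a human follicular lymphoma line, both supplied by ATCC per the labels. Each line is present as idelalisib-resistant cells, as ibrutinib-resistant cells and as cells labelled WT. Idelalisib inhibits the delta isoform of PI3-kinase and ibrutinib inhibits Bruton tyrosine kinase, and both act downstream of the B cell receptor. The labels do not say how resistance was raised, for how long, whether a resistant culture is a clone, or whether drug was present at harvest. With 1 library per group, the drug state, the culture and the library cannot be told apart.

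The proteasome degrades proteins tagged with ubiquitin. Its core is a barrel of stacked rings, with outer rings of alpha subunits that gate the entrance and inner rings of beta subunits, some of which cut peptide bonds. The cap sits on the end of the barrel, where its ATPases unfold the substrate and open the gate while its lid and receptor subunits bind and remove ubiquitin. Subunit genes are known to be expressed together in most cells, and B cell tumours of the plasma cell type are treated with proteasome inhibitors.

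Relative depth, read from coverage per FPKM, lay between 0.936 and 1.42 times that of the DAUDI library labelled WT, with the highest value in ibrutinib-resistant DAUDI cells. The B cell markers MS4A1, CD79A, CD79B and PAX5 were at 1 FPKM or more in every library. Across 12186 genes with an isoform of 300 nt or more, the libraries labelled WT of the 2 lines correlated with each other at Pearson r = 0.991, and with the resistant libraries of their own line at r between 0.722 and 0.737. The resistant libraries of a line correlated at 0.98 in DAUDI and 0.992 in DOHH2, and between lines at 0.838 to 0.856. These are correlations across genes within pairs of libraries, and genes are not independent replicates. The libraries labelled WT thus stand apart from the resistant ones, and they are called WT-labelled below. Whether each of them holds the cells its label names was not tested, and every difference from a WT-labelled library within a line, and the block by line, rests on the label. Summed levels of 4 myeloid markers were 23.1 FPKM and 25.8 FPKM in idelalisib-resistant and ibrutinib-resistant DAUDI cells, against 0.186 FPKM in WT-labelled DAUDI cells. In DOHH2 they were 29.2 FPKM and 26.2 FPKM, against 0.258 FPKM, and there the sum in resistant cells was almost wholly CD33, at 29.1 FPKM and 26.2 FPKM, while LYZ, CSF1R and CD14 were below the WT-labelled library. CD14 was at most 0.103 FPKM in all libraries. The summed T and NK markers reached at most 3.12 FPKM and the erythroid markers at most 5.46 FPKM. The part of these markers in the results below was not tested. In bulk RNA, fewer cells of a type and less RNA per cell cannot be told apart.

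Core subunit mRNA stood higher relative to cap subunit mRNA in each of the 4 resistant libraries than in the WT-labelled library of its line. The summed FPKM of the 12 measured core genes was 888.2 in idelalisib-resistant and 1048 in ibrutinib-resistant DAUDI cells, against 658.5 in WT-labelled DAUDI cells. The summed FPKM of the 20 cap genes was 543.5 and 610.5 in the same resistant cells, against 653.0 in WT-labelled cells. The ratio of core to cap was therefore 1.63 and 1.72 in resistant DAUDI cells, against 1.01 in WT-labelled cells. In DOHH2, the core sum was 707.8 in idelalisib-resistant and 616.4 in ibrutinib-resistant cells, against 646.5 in WT-labelled cells, and the cap sum was 493.9 and 438.7, against 615.6. The ratio was 1.43 and 1.40 in resistant DOHH2 cells, against 1.05 in WT-labelled cells. The cap sum was thus below that of the WT-labelled cells in all 4 resistant libraries, while the core sum was above it in 3 of them. Sums give most weight to a few high genes. In ibrutinib-resistant DAUDI cells 11 of 20 cap genes were above the WT-labelled level and 9 below it. There PSMD8 had 51.8 FPKM, against 79.8 FPKM, and PSMD1 had 12.6 FPKM, against 36.3 FPKM. PSMA4, a core gene, had 262.3 FPKM in the same cells, against 86.7 FPKM. Core and cap genes together took 0.384% and 0.429% of all FPKM in resistant DAUDI cells, against 0.37% in WT-labelled cells, and 0.306% and 0.276% in resistant DOHH2 cells, against 0.331%. These shares also move with MIR663A, the highest gene in the sum of all FPKM. It had 33900 and 9950 FPKM in idelalisib-resistant and ibrutinib-resistant DAUDI cells, against 34300 FPKM. In the same states of DOHH2 it had 48800 and 42800 FPKM, against 33600 FPKM.

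The medians gave the same order of resistant above WT-labelled cells in each line, but not the same order of the 2 drugs in DAUDI. The median core level minus the median cap level, on the log2(FPKM + 1) scale, was 1.53 in idelalisib-resistant and 1.23 in ibrutinib-resistant DAUDI cells, against 0.73 in WT-labelled cells. It was 1.30 and 1.16 in resistant DOHH2 cells, against 0.87 in WT-labelled cells. This difference sets genes against each other, and so depends on how the deposited FPKM treat different genes. Among the 12 tested members with 1 annotated isoform, the FPKM lay above its own deposited upper bound in 11 or 12 of them in each library, which was so in 0 of the 20 members with several isoforms. With those 20 genes alone, the median difference was 0.90 and 0.79 in resistant DAUDI cells, against 0.18 in WT-labelled cells, but 0.31 and 0.32 in resistant DOHH2 cells, against 0.55 in WT-labelled cells, so the order turned round in DOHH2. The ratio of the sums stayed above that of the WT-labelled cells with those genes. It was 1.76 and 1.97 in resistant DAUDI cells, against 1.01 in WT-labelled cells, and 1.19 and 1.26 in resistant DOHH2 cells, against 1.04. These values have no replicate and no test.

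**Figure D1:**
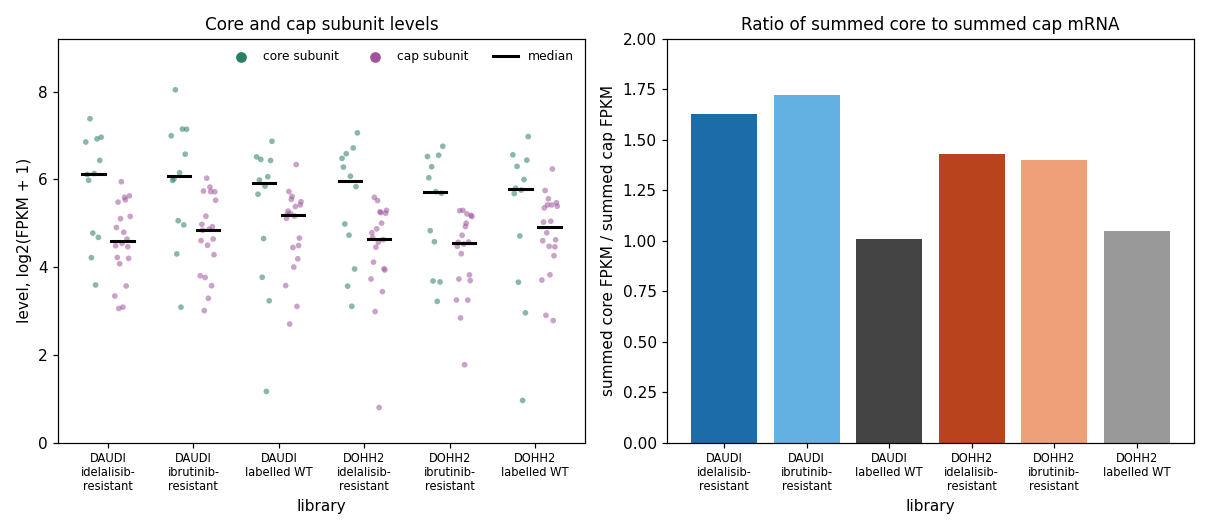
Left, level of each of the 12 core and 20 cap genes in log2(FPKM + 1) by library, with the median as a bar. Right, summed core FPKM divided by summed cap FPKM by library, between 1.40 and 1.72 in the 4 resistant libraries and 1.01 and 1.05 in the WT-labelled libraries.

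The levels of single genes spread widely within each library, although the subunits proper, without the assembly chaperones, are built into particles in fixed numbers. Without PSMA8, the highest core gene exceeded the lowest by 9.16 to 18.4 times in FPKM over the 6 libraries, and PSMA5 or PSMB2 was the lowest. Among cap genes, which include the assembly chaperones PSMD5, PSMD9 and PSMD10, the highest exceeded the lowest by 8.26 to 15.7 times in 5 libraries. In idelalisib-resistant DOHH2 cells it did so by 63.5 times. PSMD5 was the lowest in both resistant DOHH2 libraries and PSMD9 in WT-labelled DOHH2 cells, so these ranges set a subunit against a chaperone. FPKM are scaled to transcript length, so that genes can be set side by side, within the limit on bounds given above.

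**Figure D2:**
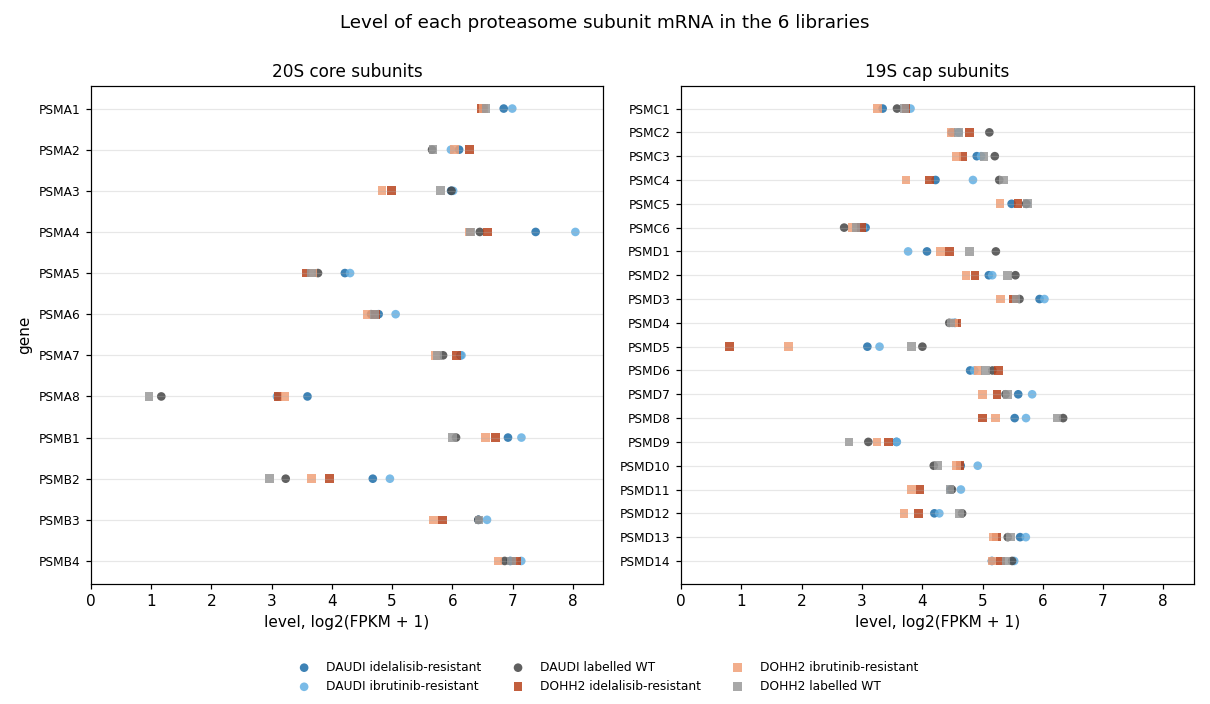
Level in log2(FPKM + 1) of each of the 12 core genes (left) and 20 cap genes (right), with 1 point per library, circles for DAUDI and squares for DOHH2. PSMA8 and PSMB2 have their lowest points in the 2 WT-labelled libraries, and PSMD5 has its lowest points in the 2 resistant DOHH2 libraries.

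Resistant and WT-labelled cells of both lines were compared in a single limma fit of log2(FPKM + 1) that held the line as a block, with p adjusted by Benjamini and Hochberg over 12337 genes. Of the core genes 3 rose and of the cap genes 1 fell, out of 32, at an adjusted p under 0.05: PSMA8, PSMB1 and PSMB2 were higher and PSMD8 was lower. Over all genes tested, 27.3% were called in this comparison, 14.2% higher and 13.1% lower, so that the members' share of 4 in 32 was below that of all genes. All genes tested include many of lower level than the members. Taken drug by drug, PSMA8 and PSMD8 were called in idelalisib-resistant against WT-labelled cells, where 9.19% of all genes were called higher and 10.4% lower (19.6% in all), and PSMA8 in ibrutinib-resistant against WT-labelled cells, where 9.99% were called higher (19.7% in all). Fits with 1 library left out leave 1 library in a state, so only their differences are given. They lay between 2.07 and 2.31 for PSMA8, 0.64 and 0.97 for PSMB1, 0.85 and 1.59 for PSMB2, and -1.13 and -0.71 for PSMD8. None of the 4 calls held in every such fit, and leaving out a resistant library also cut the calls over all genes. With scaling by the median of ratios the count was 3 higher and 5 lower, against 3560 of all 12337 genes. PSMC3, PSMC4, PSMD2 and PSMD12 then passed as well. With scaling by the upper quartile it was 3 higher and 3 lower, against 3607 of all genes.

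PSMA8 is an alpha subunit that takes the place of PSMA7 in the proteasome of germ cells of the testis. It lies at chr18:23713816-23773319 (hg19). Its level was 11.1 FPKM in idelalisib-resistant and 7.51 FPKM in ibrutinib-resistant DAUDI cells, against 1.25 FPKM in WT-labelled DAUDI cells. In DOHH2 it was 7.63 FPKM and 8.32 FPKM in resistant cells, against 0.951 FPKM in WT-labelled cells. All 4 resistant libraries were above both WT-labelled ones, with FPKM ratios between 6 and 8.86 within a line. The share of all genes whose groups separate in this way was not counted. The WT-labelled libraries differed from each other by 1 or more in only 60 of 12186 genes. A lack of overlap, here and below, therefore describes the values and sets no gene apart. The limma difference was 2.19 ± 0.21 (SE, log2 scale, adjusted p = 0.00853), and 2.86 or 1.15 with a pseudocount of 0.1 or 5 in place of 1. PSMA8 was the lowest of the 12 core genes in all 6 libraries. Its sequence resembles that of PSMA7, and reads shared by the 2 genes could be split between them by the quantification, so its level is uncertain. PSMA7 itself was at 69.2 FPKM and 70.1 FPKM in resistant DAUDI cells, against 56.5 FPKM in WT-labelled cells, and at 66.2 FPKM and 51.7 FPKM in resistant DOHH2 cells, against 53.0 FPKM (limma adjusted p = 0.322).

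PSMB1 and PSMB2 are non-catalytic beta subunits of the inner rings. PSMB2, at chr1:36065143-36107445 (hg19), had 24.6 FPKM in idelalisib-resistant and 30.2 FPKM in ibrutinib-resistant DAUDI cells, against 8.41 FPKM in WT-labelled cells. In DOHH2 it had 14.6 FPKM and 11.7 FPKM in resistant cells, against 6.78 FPKM in WT-labelled cells. The groups did not overlap, and the FPKM ratio was 2.93 and 3.59 in DAUDI and 2.15 and 1.72 in DOHH2 (limma difference 1.22 ± 0.26 SE, adjusted p = 0.0404). PSMB1, at chr6:170844204-170862417 (hg19), had 120.2 FPKM and 140.5 FPKM in resistant DAUDI cells, against 65.7 FPKM in WT-labelled cells, and 104.1 FPKM and 92.7 FPKM in resistant DOHH2 cells, against 62.8 FPKM. Again all resistant libraries were above both WT-labelled ones (limma difference 0.81 ± 0.17 SE, adjusted p = 0.0378). PSMB4, another non-catalytic beta subunit, lay between 107 FPKM and 140.3 FPKM in the resistant libraries, against 115.8 FPKM and 124.8 FPKM in the WT-labelled ones, with overlapping groups (limma adjusted p = 0.815).

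PSMD8, a subunit of the lid at chr19:38865190-38874464 (hg19), was the cap gene that fell. Its level was 45.3 FPKM in idelalisib-resistant and 51.8 FPKM in ibrutinib-resistant DAUDI cells, against 79.8 FPKM in WT-labelled cells. In DOHH2 it was 31.1 FPKM and 36.1 FPKM in resistant cells, against 74.4 FPKM in WT-labelled cells. The groups did not overlap, and FPKM ratios in DAUDI were 0.568 and 0.648, and in DOHH2 0.418 and 0.485 (limma difference -0.92 ± 0.16 SE, adjusted p = 0.0262). PSMD8 had the highest cap level in both WT-labelled libraries.

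The promoter windows of the members called in this comparison are shown so that the start regions of genes that moved in opposite directions can be read side by side. Each is the 250 bases before the transcript start from RefSeq (GRCh38.p14), at chr1:35641527-35641776 on the minus strand for PSMB2, chr18:26133619-26133868 on the plus strand for PSMA8 and chr19:38374321-38374570 on the plus strand for PSMD8, written 5′ to 3′ in the direction of transcription. PSMB1 is named only. Capitals mark a match on either strand to CCAAT, the box bound by NF-Y, to CCGGAAG, a form of the site of ETS factors, or to TGACNNNGC, the core of the element bound by the NFE2L1 and NFE2L2 factors.
PSMB2: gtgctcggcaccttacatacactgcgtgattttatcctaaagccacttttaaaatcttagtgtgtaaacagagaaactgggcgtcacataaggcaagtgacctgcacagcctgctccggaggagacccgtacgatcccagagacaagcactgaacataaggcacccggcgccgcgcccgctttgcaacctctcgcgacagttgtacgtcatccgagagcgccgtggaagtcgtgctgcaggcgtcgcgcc
PSMA8: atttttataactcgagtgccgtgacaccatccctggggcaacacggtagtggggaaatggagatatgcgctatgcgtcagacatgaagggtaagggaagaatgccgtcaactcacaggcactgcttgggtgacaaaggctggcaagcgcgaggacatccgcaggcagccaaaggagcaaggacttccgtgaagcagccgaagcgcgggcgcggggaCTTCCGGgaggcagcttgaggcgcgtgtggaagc
PSMD8: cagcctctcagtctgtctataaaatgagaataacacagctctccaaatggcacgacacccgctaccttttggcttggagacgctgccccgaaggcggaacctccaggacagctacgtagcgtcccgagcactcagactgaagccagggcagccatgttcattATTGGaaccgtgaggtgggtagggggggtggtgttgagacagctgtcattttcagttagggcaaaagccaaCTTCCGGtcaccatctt

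The stretches marked in these windows do not overlap, and both strands were searched. The PSMB2 window held 0 matches, PSMA8 held CCGGAAG, and PSMD8 held CCAAT and CCGGAAG. Among the 34 windows of the 29 tested members that had an entry, 41.2% held CCAAT, against 32% of all 35116 promoter windows of the same length. TGACNNNGC was in 20.6% of member windows, against 10.9% of all. CCGGAAG was in 23.5% of member windows, against 8.52% of all. It was found in 7 of 21 cap windows (33.3%) and in 1 of 13 core windows (7.69%). CCAAT was in 42.9% of cap and 38.5% of core windows, and TGACNNNGC in 23.8% and 15.4%. A gene can have several windows, and a match describes letters only.

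Among the alpha subunits other than PSMA8, PSMA4 had the widest range. It had 165.7 FPKM in idelalisib-resistant and 262.3 FPKM in ibrutinib-resistant DAUDI cells, against 86.7 FPKM in WT-labelled cells, and 95.0 FPKM and 77.1 FPKM in resistant DOHH2 cells, against 77.5 FPKM. It was thus well above the WT-labelled cells in DAUDI and near them in DOHH2, and the limma comparison of both lines gave an adjusted p of 0.223. PSMA2 was higher in all 4 resistant libraries, at 68.1 FPKM and 61.9 FPKM in DAUDI, against 49.6 FPKM, and 76.7 FPKM and 64.6 FPKM in DOHH2, against 50.2 FPKM, but missed the threshold (limma adjusted p = 0.0741). PSMA6 lay between 22.9 FPKM and 32.3 FPKM in the resistant libraries, against 24.1 FPKM and 25.2 FPKM in the WT-labelled ones.

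PSMA3 and the beta subunit PSMB3 differed between the lines. PSMA3 had 62.02 FPKM and 63.6 FPKM in idelalisib-resistant and ibrutinib-resistant DAUDI cells, against 62.3 FPKM in WT-labelled cells, but 30.6 FPKM and 27.5 FPKM in resistant DOHH2 cells, against 54.7 FPKM. PSMB3 had 85.4 FPKM and 94.3 FPKM in resistant DAUDI cells, against 85.2 FPKM, but 56.1 FPKM and 50.4 FPKM in resistant DOHH2 cells, against 85.7 FPKM. Both genes were therefore at the level of the WT-labelled cells in DAUDI and lowest in resistant DOHH2 cells. The PSMA3 locus overlaps FLJ31306, which lay at 11 to 14.7 FPKM, and the notes do not say whether the quantification used the strand.

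In the cap, 6 ATPases form the ring that unfolds substrates. PSMC4 had 17.6 FPKM in idelalisib-resistant and 27.7 FPKM in ibrutinib-resistant DAUDI cells, against 37.8 FPKM in WT-labelled cells, and 16.3 FPKM and 12.3 FPKM in resistant DOHH2 cells, against 39.8 FPKM. All 4 resistant libraries were below both WT-labelled ones, a separation whose share over all genes was not counted. The limma difference of -1.09 ± 0.30 (SE) missed the threshold (adjusted p = 0.0702). PSMC3 lay between 22.7 FPKM and 30.5 FPKM in the resistant libraries, against 35.8 FPKM and 31.6 FPKM in WT-labelled DAUDI and DOHH2 cells, also without overlap (limma adjusted p = 0.147). PSMC1, PSMC2, PSMC5 and PSMC6 overlapped between the groups. Their levels ran from 6.18 FPKM for PSMC6 to 52.2 FPKM for PSMC5 in the resistant libraries, and from 5.52 FPKM to 52.7 FPKM for the same 2 genes in the WT-labelled ones. PSMC5 overlaps FTSJ3, which lay at 11.1 to 17.7 FPKM.

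The base of the cap also holds the large scaffold subunits PSMD1 and PSMD2 and the ubiquitin receptor PSMD4. PSMD1 had 15.9 FPKM and 12.6 FPKM in idelalisib-resistant and ibrutinib-resistant DAUDI cells, against 36.3 FPKM in WT-labelled cells, and 21.0 FPKM and 18.8 FPKM in resistant DOHH2 cells, against 26.5 FPKM (limma adjusted p = 0.0848). PSMD2 had 33.4 FPKM and 34.8 FPKM in resistant DAUDI cells, against 45.7 FPKM, and 28.3 FPKM and 25.5 FPKM in resistant DOHH2 cells, against 41.7 FPKM (limma adjusted p = 0.0663). For both genes every resistant library was below both WT-labelled ones. PSMD4 was close to level throughout, between 21.6 FPKM and 22.7 FPKM in the resistant libraries, against 20.8 FPKM and 21.2 FPKM in WT-labelled DAUDI and DOHH2 cells.

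Of the 8 lid subunits, PSMD8 fell and the other 7 were not called. PSMD12, a scaffold of the lid, had 17.4 FPKM and 18.5 FPKM in resistant DAUDI cells, against 24.3 FPKM, and 14.3 FPKM and 12.0 FPKM in resistant DOHH2 cells, against 23.6 FPKM, without overlap (limma adjusted p = 0.0753). PSMD14, the deubiquitinase of the lid, lay between 34.6 FPKM and 45.1 FPKM in the resistant libraries, against 43.9 FPKM and 40.9 FPKM in the WT-labelled ones. PSMD3, PSMD6, PSMD7, PSMD11 and PSMD13 overlapped between the groups, with limma differences between -0.25 and 0.11.

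The 3 chaperones that assemble the base did not move alike. PSMD5 had 7.51 FPKM in idelalisib-resistant and 8.79 FPKM in ibrutinib-resistant DAUDI cells, against 15.02 FPKM in WT-labelled cells. In DOHH2 it had 0.744 FPKM and 2.43 FPKM in resistant cells, against 13.2 FPKM in WT-labelled cells. Every resistant library was below both WT-labelled ones, with FPKM ratios in DAUDI of 0.5 and 0.585, and in DOHH2 of 0.0564 and 0.184, yet the limma difference of -1.67 ± 0.49 (SE) missed the threshold (adjusted p = 0.0759). PSMD9 and PSMD10 were higher in all 4 resistant libraries than in both WT-labelled ones. PSMD9 had 10.9 FPKM in both resistant DAUDI libraries, against 7.61 FPKM, and 9.87 FPKM and 8.52 FPKM in resistant DOHH2 cells, against 5.89 FPKM (limma adjusted p = 0.0801). PSMD10 had 23.9 FPKM and 29.3 FPKM in resistant DAUDI cells, against 17.3 FPKM, and 23.7 FPKM and 22.8 FPKM in resistant DOHH2 cells, against 18.2 FPKM (limma adjusted p = 0.107).

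Within each line the difference from the WT-labelled library was taken without a test. In idelalisib-resistant DAUDI cells 2 members were higher by 1 or more on the log2 scale (PSMA8 and PSMB2) and 2 were lower (PSMC4 and PSMD1), against 15.3% of all genes higher, 15.8% lower and 31.1% in either direction. In ibrutinib-resistant DAUDI cells 4 were higher (PSMA4, PSMA8, PSMB1 and PSMB2) and 1 was lower (PSMD1), against 20.2%, 14.6% and 34.9% of all genes. In DOHH2, PSMA8 was higher and PSMC4, PSMD5 and PSMD8 were lower in idelalisib-resistant cells, against 16.0% of all genes higher, 15.7% lower and 31.8% in either direction. The same 4 genes passed in ibrutinib-resistant DOHH2 cells, against 14.9%, 15.7% and 30.6% of all genes. At a difference of 0.5 or more in either direction, 9 members passed in idelalisib-resistant and 10 in ibrutinib-resistant DAUDI cells, against 56.4% and 60.2% of all genes, and 12 and 11 passed in the same states of DOHH2, against 56.3% and 55.2%. The drugs share the WT-labelled library of their line. The share of members past either difference was below that of all genes in each of the 4 comparisons. Members had a median of 24.2 to 37.0 FPKM by library, against 6.99 to 8.15 FPKM over all genes tested. The part of level in these shares was not tested.

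The median difference of the core was 0.39 in idelalisib-resistant and 0.44 in ibrutinib-resistant DAUDI cells and 0.19 and -0.02 in the same states of DOHH2. That of the cap was -0.27 and 0.02 in DAUDI and -0.17 and -0.43 in DOHH2. All genes tested had medians of 0.05, 0.18, 0.08 and 0.03 in these 4 comparisons. The core median was 0.66 and 0.42 above the cap median in DAUDI and 0.35 and 0.41 above it in DOHH2, a gap in which a scaling of whole libraries cancels almost fully. With the 20 members of several isoforms the gap was 0.80 and 0.85 in idelalisib-resistant and ibrutinib-resistant DAUDI cells, and 0.25 and 0.44 for the same states in DOHH2. Scaling by the median of ratios moved the median of all genes in ibrutinib-resistant DAUDI cells to -0.02 and the cap median there to -0.24, and scaling by the upper quartile moved that cap median to -0.11, so that its sign turned. In idelalisib-resistant DOHH2 cells, scaling by the median of ratios moved the median of all genes to -0.03 and the core median to 0.01. In DAUDI, 11 and 12 of 12 core genes were above 0 in idelalisib-resistant and ibrutinib-resistant cells. In DOHH2, 8 and 5 of 12 were. Of the 20 cap genes, 13 and 9 were below 0 in DAUDI, and 13 and 17 were in DOHH2. Among all 12337 genes, 6461 and 7221 were above 0 in DAUDI, and 6655 and 6369 were in DOHH2. Below 0 were 5812 and 5047 of all genes in DAUDI, and 5518 and 5816 in DOHH2.

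**Figure D3:**
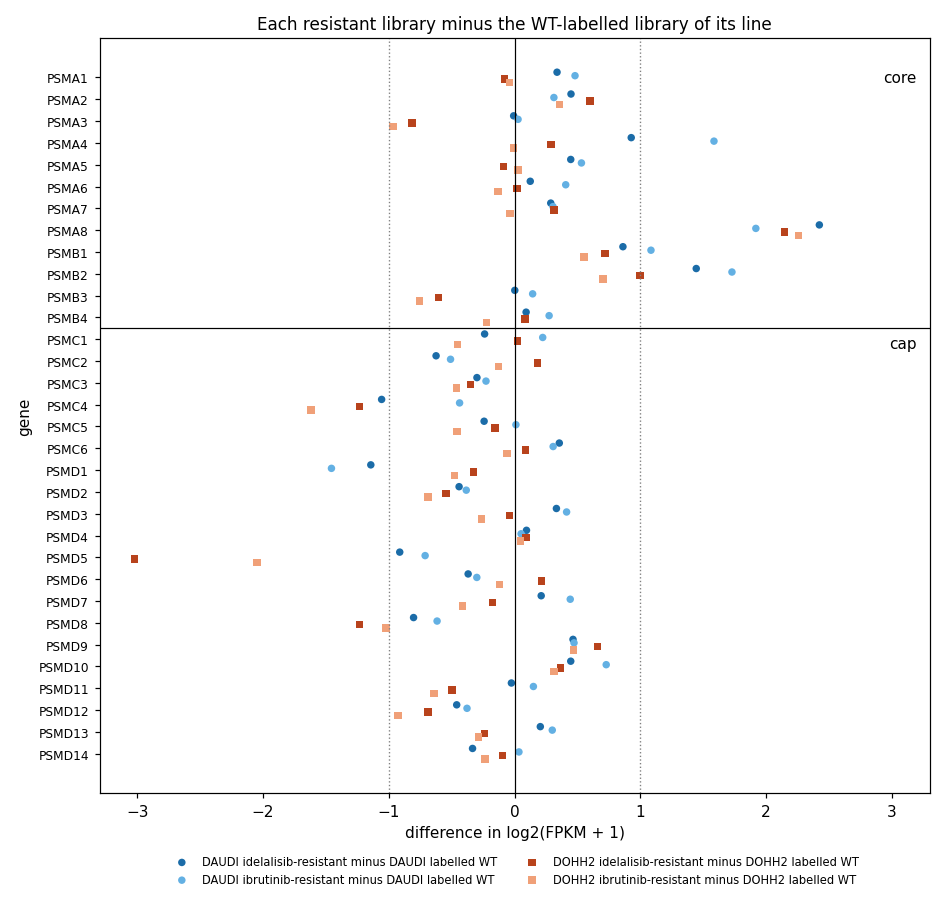
Difference in log2(FPKM + 1) of each resistant library from the WT-labelled library of its line, for the 32 tested members, core above and cap below the line. PSMA8 and PSMB2 lie to the right in all 4 libraries, and PSMD5, PSMD8, PSMC4 and PSMD1 lie to the left in all 4.

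The resistant cells of the 2 lines were compared with each other, with the 2 drugs as replicates of a line and without the WT-labelled libraries. Of the 32 members, 9 were lower and 0 were higher in resistant DOHH2 than in resistant DAUDI cells, against 14.2% of all genes lower and 13.1% higher. The lower ones were 5 of 12 core genes (PSMA1, PSMA3, PSMA5, PSMB2 and PSMB3) and 4 of 20 cap genes (PSMD3, PSMD5, PSMD11 and PSMD13). In all, 27 of 32 members had a difference below 0, with a median of -0.33, against -0.04 over all genes. Fits with 1 library left out leave 1 library in a line, so only differences are given. They lay between -1.16 and -1.01 for PSMA3 and between -2.39 and -1.41 for PSMD5, and no called member changed sign. No call held in every such fit, and fewer of all genes were called as well. With the drug as a replicate block, 2 members were called, PSMA3 and PSMD5, against 1914 of all 12337 genes.

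PSMA3, whose values are given above, had the smallest p among the members (limma difference -1.09 ± 0.09 SE, adjusted p = 0.00808), and it was called under all 9 other settings that kept the 4 libraries. PSMB3 followed with -0.74 ± 0.11 (SE, limma adjusted p = 0.0218). PSMA5, an alpha subunit, had 10.9 FPKM and 11.9 FPKM in idelalisib-resistant and ibrutinib-resistant DOHH2 cells, against 17.6 FPKM and 18.7 FPKM in the same states of DAUDI (limma adjusted p = 0.0297). PSMB2 was lower in resistant DOHH2 than in resistant DAUDI cells, with a difference of -1.01 ± 0.18 (SE, limma adjusted p = 0.0319), although it was above the WT-labelled level in both lines.

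Of the cap genes, PSMD5 was lowest in resistant DOHH2 cells, with a difference of -1.90 ± 0.39 (SE, limma adjusted p = 0.0447). With a pseudocount of 0.1 or 5 the difference was -2.49 or -1.01, and with 0.1 it was not called. PSMD11, a lid subunit, had 14.6 FPKM and 13.2 FPKM in resistant DOHH2 cells, against 21.1 FPKM and 23.96 FPKM in resistant DAUDI cells (limma adjusted p = 0.035). PSMD13, another lid subunit, had 36.5 FPKM and 35.3 FPKM, against 48.3 FPKM and 51.6 FPKM (limma adjusted p = 0.0335), and PSMD3 had 44.8 FPKM and 38.2 FPKM, against 60.6 FPKM and 64.2 FPKM (limma adjusted p = 0.0409). In each of these genes the lines did not overlap, which a call from 2 libraries against 2 nearly requires. PSMA1, an alpha subunit, was at the edge of the threshold, with 88.2 FPKM and 90.8 FPKM, against 114.4 FPKM and 126.4 FPKM (limma adjusted p = 0.0484). PSMA4 missed it, at 95.0 FPKM and 77.1 FPKM, against 165.7 FPKM and 262.3 FPKM (limma adjusted p = 0.0511).

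**Figure D4:**
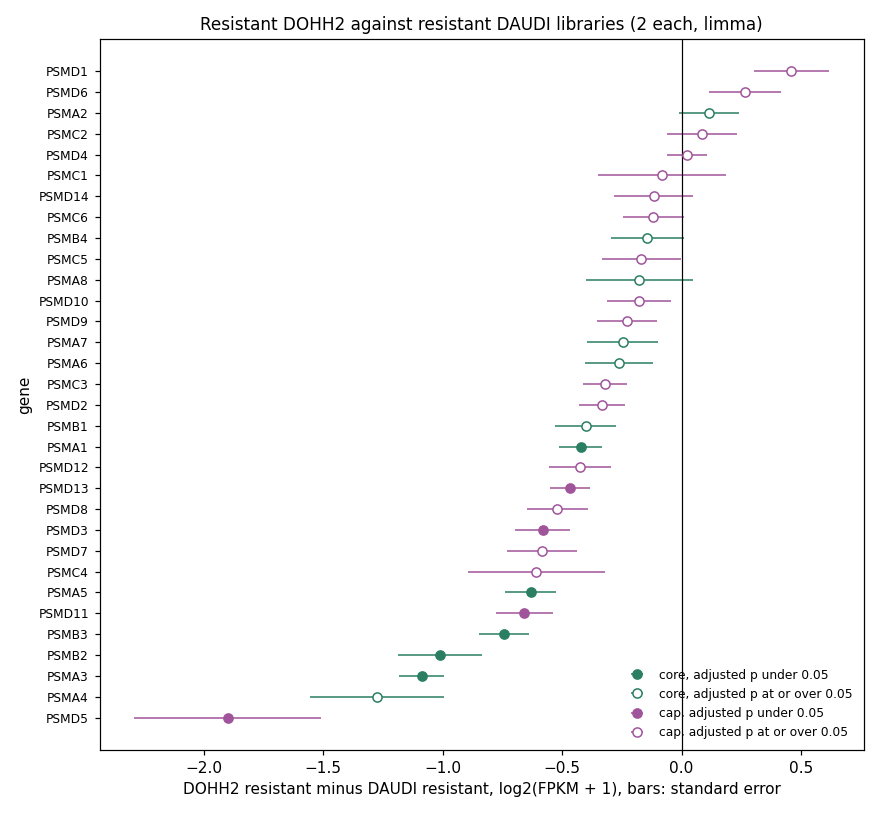
Difference in log2(FPKM + 1) of the 2 resistant DOHH2 libraries from the 2 resistant DAUDI libraries for each of the 32 tested members, with the limma standard error as bars and filled points for an adjusted p under 0.05. The 9 filled points all lie below 0, and 27 of 32 points do.

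Whether the difference from the WT-labelled library itself differed between the lines was tested as an interaction. No member was called, against 9.60% of all genes, and 6 of 32 had an unadjusted p under 0.05, against 28.8% of all genes, PSMD1 with a positive and 5 with a negative interaction. The WT-labelled arm of each line is 1 library, so the standard errors come from the spread between the 2 drugs alone and assume that WT-labelled libraries vary alike. The smallest adjusted p in limma was that of PSMA3, with an interaction of -0.90 ± 0.16 (SE, adjusted p = 0.0686). PSMB3 had -0.75 ± 0.19 (SE, limma adjusted p = 0.113). PSMD1 had 0.90 ± 0.27 (SE, limma adjusted p = 0.147), with FPKM ratios of 0.790 and 0.708 in DOHH2, against 0.438 and 0.347 in DAUDI.

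Few members differed between the 2 drugs. Within DAUDI, 0 members differed by 1 or more between ibrutinib-resistant and idelalisib-resistant cells, against 3.50% of all genes, and within DOHH2 0 did, against 1.08%. At a difference of 0.5 or more, 3 members differed in DAUDI, against 16.8% of all genes (13.4% higher and 3.38% lower): PSMA4 (0.66) and PSMC4 (0.62) were higher and PSMA8 (-0.51) was lower in ibrutinib-resistant cells. In DOHH2, PSMD5 was higher (0.98), against 2.76% of all genes higher and 4.85% in either direction. In limma 0 members were called, against 0.00811% of all genes, and 0 had an unadjusted p under 0.05, against 0.576% of all genes. Small differences ran in opposite directions in the lines. In DAUDI, 27 of 32 members were above 0, against 8639 of 12337 genes, with a median of 0.13, where all genes had 0.14. In DOHH2, 27 of 32 were below 0, against 6775 of 12337 genes, with a median of -0.15, where all genes had -0.02. The deeper ibrutinib-resistant DAUDI library moves with the DAUDI difference, and scaling by the median of ratios turned the DAUDI core and cap medians to -0.02 and -0.06. The part of depth was not tested.

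The isoform shares were read for the 20 tested members with 2 or more isoforms. In 0 of them did the share of an isoform differ by 25 percentage points or more between a resistant and the WT-labelled library of its line, against 36.1% of the 5747 tested genes with 2 or more isoforms, which include many of lower level. The largest share difference, 16.8 percentage points, was that of PSMA8 and of PSMD6, a lid subunit.

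Other genes of the pathway were read from lists of 5 to 8 genes, in each of which 1 or 2 genes were called, against 27.3% of all genes, so that the counts set no list apart. Of 5 chaperones that assemble the core, PSMG1 rose in resistant against WT-labelled cells and the other 4 were not called. PSMG1 had 43.8 FPKM and 56.1 FPKM in idelalisib-resistant and ibrutinib-resistant DAUDI cells, against 20.5 FPKM, and 28.9 FPKM and 28.8 FPKM in resistant DOHH2 cells, against 18.4 FPKM (limma adjusted p = 0.0457). Of 6 further cap-associated proteins, TXNL1, a thioredoxin-like protein of the cap, fell, with 44.9 FPKM and 55.9 FPKM in resistant DAUDI cells, against 83.8 FPKM, and 46.5 FPKM and 47.3 FPKM in resistant DOHH2 cells, against 77.3 FPKM (limma adjusted p = 0.0302). All 6 of these had a limma difference below 0, from -0.72 to -0.06, where the median of all genes was 0.12. The share of all genes below 0 in this fit was not counted. In idelalisib-resistant against WT-labelled cells, 2 of the 6 were above 0. Of 5 activators and inhibitors, PSME4, the activator PA200, rose by 0.69 ± 0.14 (SE, limma adjusted p = 0.0362).

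Among 7 factors that drive or process the inducers of subunit transcription, 1 rose and 1 fell. NFE2L2, which acts on antioxidant genes and on some proteasome genes, had 19.8 FPKM and 26.9 FPKM in resistant DAUDI cells, against 9.35 FPKM, and 21.9 FPKM and 19.8 FPKM in resistant DOHH2 cells, against 10.3 FPKM (limma adjusted p = 0.0276). NFE2L1, which induces subunit genes when proteasome activity is low, had 57.4 FPKM and 90.7 FPKM in resistant DAUDI cells, against 21.4 FPKM, but 29.0 FPKM and 17.9 FPKM in resistant DOHH2 cells, against 26.8 FPKM, and was not called (limma adjusted p = 0.375). NFYC, a subunit of the CCAAT-binding factor NF-Y, had 18.9 FPKM and 19.7 FPKM in resistant DAUDI cells, against 5.98 FPKM, and 7.86 FPKM and 8.77 FPKM in resistant DOHH2 cells, against 6.16 FPKM (limma adjusted p = 0.103). NGLY1, the glycosidase that processes NFE2L1, fell by 0.64 on the log2 scale (limma adjusted p = 0.0347). It was named after its values were seen. Of 8 shuttle and unfolding factors, VCP, the segregase that hands substrates to the proteasome, fell, with 56.2 FPKM and 64.1 FPKM in resistant DAUDI cells, against 97.8 FPKM, and 42.3 FPKM and 41.5 FPKM in resistant DOHH2 cells, against 92.1 FPKM (limma adjusted p = 0.029). Of 6 ubiquitin genes, UBA1, the main ubiquitin-activating enzyme, fell, with 64.1 FPKM and 68.1 FPKM in resistant DAUDI cells, against 123 FPKM, and 58.4 FPKM and 61.9 FPKM in resistant DOHH2 cells, against 125.9 FPKM (limma adjusted p = 0.0145).

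Between the lines, resistant DOHH2 cells against resistant DAUDI cells had 2 of 5 core assembly chaperones lower, 2 of 5 activators and inhibitors lower, 1 of 7 inducing factors higher and 1 lower, 2 of 8 shuttle and unfolding factors lower, and 0 of 6 further cap proteins and 0 of 6 ubiquitin genes called, against 14.2% of all genes lower and 13.1% higher. The activators were PSME1 and PSME2, the partners of the interferon-inducible activator ring. PSME1 had 50.9 FPKM and 68.1 FPKM in idelalisib-resistant and ibrutinib-resistant DOHH2 cells, against 245.2 FPKM and 283.3 FPKM in the same states of DAUDI (limma adjusted p = 0.00851). PSME2 had 7.52 FPKM and 8.48 FPKM in resistant DOHH2 cells, against 20.3 FPKM and 27.2 FPKM in resistant DAUDI cells (limma adjusted p = 0.0179). In both genes the lines did not overlap, which a call from 2 libraries against 2 nearly requires.

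The catalytic subunits left out of the set were also read. Neither the constitutive PSMB5, PSMB6 and PSMB7 nor the immunoproteasome subunits PSMB8, PSMB9 and PSMB10 were called in resistant against WT-labelled cells. In resistant DOHH2 against resistant DAUDI cells, PSMB8, PSMB9 and PSMB10 were lower, with limma differences of -2.06, -5.52 and -1.22. The constitutive PSMB6 was also lower there (-0.63, limma adjusted p = 0.0397), and PSMB5 and PSMB7 were not called.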

How the data were processed

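The data are 6 RNA-seq libraries, 1 per combination of line and state. The submitters' processing notes name bcl2fastq, cutadapt, TopHat2 and Cufflinks and the build hg19, with versions not given in the sources used here. Per the labels, the library kit keeps the strand. The authors deposited FPKM for 43490 isoforms per library, with lower and upper FPKM bounds, a coverage signal and the isoform length, per the file headers. FPKM carry no read counts, so absolute depth is unknown and no counting interval is given, and relative depth was read from the deposited coverage per FPKM.

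For each gene symbol the FPKM of its isoforms were added up. Left out were 528 isoforms without a name and 10 genes with a failed estimate. Values were taken as log2(FPKM + 1), which understates the change of low genes, and genes at 1 FPKM or more in at least 1 library were tested. Differences within a line have no test, and 1 or 0.5 on the log2 scale was used as a mark of size. Tests were two-sided in limma 3.58.1 (R 4.3.3), with empirical Bayes and trend, 2 residual degrees of freedom, and a threshold of 0.05 on adjusted p. They treat lines or drugs as replicates, so p-values measure the spread between these libraries. The labels give no batch. On simulated data with independent noise, the code of the fits was required to return a known mean difference. That run does not test the calls made here. Alternatives were another pseudocount, filter, scaling, trend or block, the highest isoform, and leaving out each library. Settings without PSMA8 and with members of several isoforms were added after seeing the data.

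Every member may be named; full values are given for members past a difference of 1, for the 3 highest and lowest of a class, and for called members; other lists give at most 3 genes, taken from those with the largest difference from a WT-labelled library, with exceptions marked. The members and lists were chosen with earlier results of these data known. Promoter windows are from RefSeq.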

Additional observations from a re-analysis of the deposited data

Results flagged for a closer look

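The immunoproteasome subunit PSMB9, which the set leaves out, differed from the WT-labelled library in opposite directions in the lines. It had 81.6 FPKM in idelalisib-resistant and 105.7 FPKM in ibrutinib-resistant DAUDI cells, against 12.97 FPKM in WT-labelled cells, and 0.675 FPKM and 1.49 FPKM in resistant DOHH2 cells, against 14.8 FPKM. The interaction of line and resistance was -5.70 ± 0.48 (SE, limma adjusted p = 0.0199). The WT-labelled arm of each line is 1 library, so this p measures only the spread between the 2 drugs.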

How the results depend on the processing

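Of 274 values recomputed under an alternative, 243 stayed within the spread of 0.21 (log2) or within 1.5 times the count, and 31 moved. Some could not move, so the tally is no measure of stability. Dropping the filter leaves the fold counts and medians of members as they were, and dropping PSMA8 leaves the cap. A change of sign within the spread also counts as staying, as for the cap median in ibrutinib-resistant DAUDI cells, 0.02 as reported and -0.11 with the upper quartile. In resistant against WT-labelled cells, 4 members were called, against 8 with scaling by the median of ratios, 1 with no filter and 1 with no replicate block by line. Over all genes, these settings called 3364, 3560, 2040 and 3200 in that order. Fits with 1 library left out leave 1 library in a state or line, and no member's call held in all of them. In DOHH2 against DAUDI resistant cells 9 were called, against 1 with no filter and 2 with a replicate block by drug. Over all genes, these settings called 3362, 1977 and 1914 in that order. The interaction called 0 throughout, and without a WT-labelled library it could not be fitted. PSMA8 was called under all 9 alternatives that kept the 6 libraries (adjusted p in limma 0.00404 to 0.0351), and PSMB1, PSMB2 and PSMD8 under 7 of 9. The labels carry no replicate numbers, so the line and the drug served as blocks. The cause of these moves was not tested.

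For ibrutinib-resistant against idelalisib-resistant DOHH2 cells, the count at 1 or more was 0, and 1 with a pseudocount of 0.1, with the upper quartile or with the highest isoform; at 0.5 or more it was 1, against 2 with a pseudocount of 0.1 and 0 with one of 5. The DAUDI count at 0.5 or more was 3, against 1 with either other scaling. In idelalisib-resistant against WT-labelled DAUDI cells the count at 1 or more was 4, against 2 with a pseudocount of 5. In ibrutinib-resistant DAUDI cells the core and cap medians were 0.19 and -0.24 with the median of ratios, where 47.1% of all genes past 1 were higher, against 58.1% as reported. With members of several isoforms, the cap median there was -0.34 and the core median in idelalisib-resistant DOHH2 cells -0.031. The median core level minus the median cap level was then 0.90, 0.79 and 0.18 in idelalisib-resistant, ibrutinib-resistant and WT-labelled DAUDI cells and 0.31, 0.32 and 0.55 in DOHH2. Absolute depth is unknown, so the precision of values near 1 FPKM, such as PSMD5 in idelalisib-resistant DOHH2 cells and PSMA8 in WT-labelled cells, cannot be given.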
